A study of Mus musculus with 16 samples.

Results

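The 8 vehicle tumors of this series were grouped by how much signal they gave for 10 genes of mouse host cells, and the 4 host-rich tumors were set against the 4 host-poor tumors across all other genes of a mouse array. The 8 are vehicle tumors 5 to 12 of 16 xenografts in all. Each was grown from LA-N-1, a human neuroblastoma line with MYCN amplification, inoculated under the skin in Matrigel in female athymic Nude-Foxn1 nu/nu mice aged 4 to 6 weeks, which lack a thymus and so mature T cells. Vehicle was given by oral gavage, daily according to the labels and on 6 days a week according to the methods, until tumors reached 2 cm3, and the last 8 tumors excised from the group were arrayed. The other 8 tumors, numbered 4 to 11, grew in the same way in mice given cinacalcet at 10 mg/kg per day, an allosteric activator of the calcium-sensing receptor.

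A xenograft is a mixture of 2 species. The cancer cells are human, while fibroblasts, macrophages, vessel walls and other stroma grow in from the mouse. Fibroblasts lay down collagens and proteoglycans, macrophages engulf dying cells and recycle their iron, endothelial cells line the vessels, and mural cells (pericytes and smooth muscle) wrap them. A mouse array reads the host side of this mixture, although conserved human transcripts may also bind its probes. No array of human cells alone was analysed here, so the human share of any signal was not measured.

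The host score of a tumor was the mean log2 signal of Col1a1, Col1a2 and Col3a1, which encode fibrillar collagens, Dcn, which encodes the proteoglycan decorin, Cd68 and the receptor gene Csf1r of macrophages, Cdh5 and Pecam1 of endothelial junctions, and Acta2 and Rgs5 of mural cells. The score was 8.32 in vehicle tumor 6, 8.02 in tumor 8, 8.00 in tumor 9 and 7.91 in tumor 12, the host-rich tumors. It was 7.21 in tumor 10, 6.95 in tumor 7, 6.88 in tumor 11 and 5.56 in tumor 5, the host-poor tumors. Host-rich tumors averaged 8.06 ± 0.18 (SD, n = 4) and host-poor tumors 6.65 ± 0.74 (SD, n = 4). Tumor 12, just inside the host-rich group, and tumor 10, just outside it, were 0.70 apart, and tumor 5 lay well below the rest. Since these values chose the groups, the differences between the groups in vehicle tumors are given as a description, with no test.

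**Figure D1:**
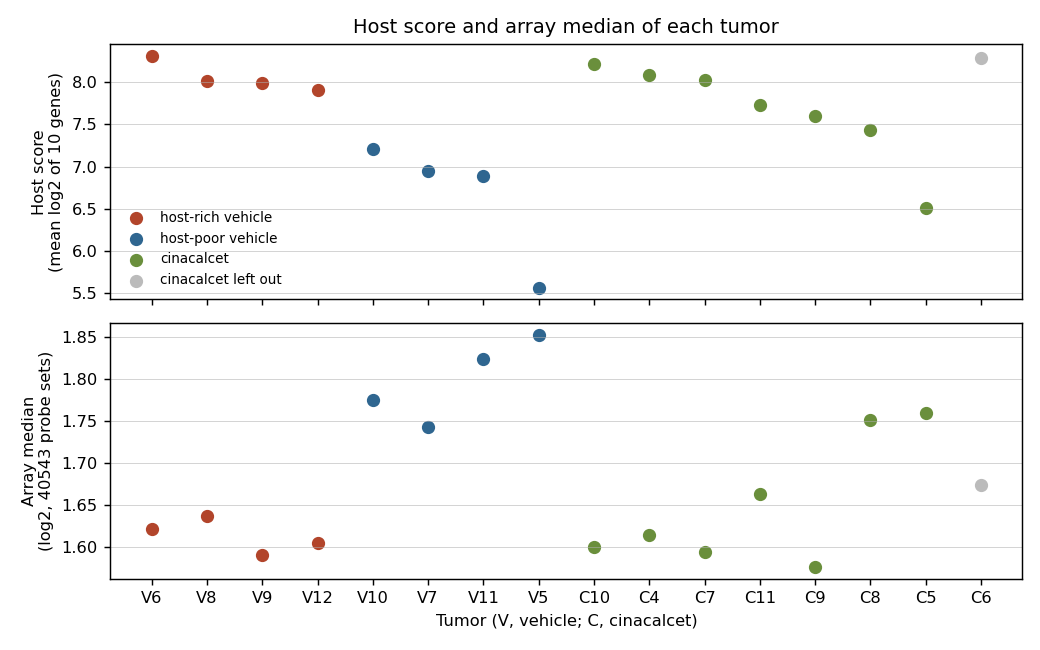
The upper plot shows the host score (mean log2 signal of 10 genes) and the lower plot the median log2 signal of the whole array, each point 1 tumor. Host-rich vehicle tumors (V6, V8, V9 and V12) had scores of 7.91 to 8.32 and array medians of 1.59 to 1.64, whereas host-poor tumors (V10, V7, V11 and V5) had scores of 5.56 to 7.21 and higher medians of 1.74 to 1.85.

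Among the score genes, which chose the groups, those of fibroblasts and macrophages lay further apart than those of vessels. The mean of the 4 fibroblast genes was 8.36 to 9.17 in host-rich tumors and 4.90 to 7.75 in host-poor tumors, and the mean of the 2 macrophage genes was 6.99 to 7.20 and 4.66 to 5.82. The 2 endothelial genes averaged 7.22 to 7.58 and 6.29 to 6.70, a smaller gap of 0.85 between the group means. The 2 mural genes overlapped, at 7.76 to 8.89 in host-rich and 7.05 to 8.31 in host-poor tumors. Of the score genes, Dcn differed by 2.35 on the log2 scale, Cd68 by 1.91 and Rgs5, a pericyte gene, by 0.15. Rgs5 stood at 8.59, 8.78, 7.86 and 8.15 in host-rich tumors 6, 8, 9 and 12, and at 8.73, 8.13, 8.58 and 7.35 in host-poor tumors 10, 7, 11 and 5. The groups overlapped for Rgs5 and Acta2 and for no other score gene. The same 4 tumors were host-rich when any of the 4 cell types was left out of the score, when each gene was standardized first, and under each of 3 other scalings of the arrays. In bulk tumors, fewer cells of a type and less RNA per cell cannot be told apart.

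**Figure D2:**
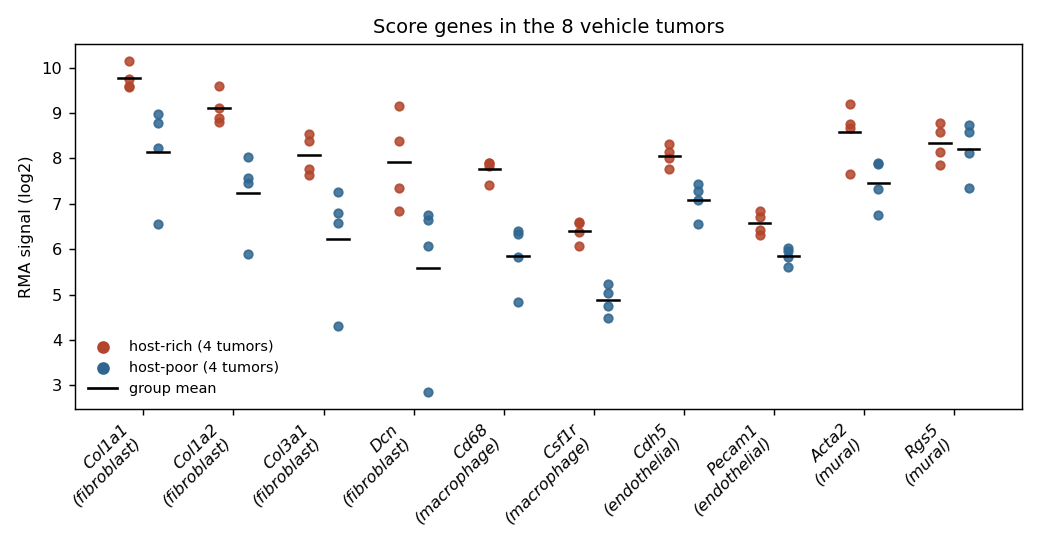
Log2 signal of the 10 score genes (horizontal axis, with the cell type each marks) in the 4 host-rich and 4 host-poor vehicle tumors, each point 1 tumor and each line a group mean. The groups are separate for 8 genes and overlap for Acta2 and Rgs5.

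Whole-array measures moved with the groups too. The array median was 1.59 to 1.64 in host-rich and 1.74 to 1.85 in host-poor tumors, and the interquartile range was 2.0 to 2.09 and 1.80 to 1.86, so neither overlapped. The mean of 22 measured genes that neither tumor nor stroma is known to use, such as rhodopsin, was 1.16 to 1.29 in host-rich and 1.35 to 1.51 in host-poor tumors. The mean of 24 housekeeping genes was 6.41 to 6.52 and 5.73 to 6.04. Dim signals were thus higher and bright signals lower on the host-poor arrays. The part of the array in the differences below was not tested apart from host content in the vehicle tumors, where the 2 cannot be told apart.

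Of 12988 genes described, each by 1 probe set whose mean signal over the vehicle tumors was in the upper 50% of the array, 2013 (15.5%) were higher in host-rich tumors and 413 (3.18%) were lower. A gene was counted when the group means differed by 0.5 log2 or more and no host-rich tumor overlapped a host-poor one. The median difference over all genes was 0.09. This balance depended on how the arrays were scaled, since 83.0% of the counted genes were higher as deposited, against 97.1% with the array medians set equal, 62.1% after quantile normalization and 8.42% with the housekeeping mean set equal. These scalings shifted the median difference of all genes to 0.27, 0.02 and -0.49, so lists are also given relative to that median. The counts were 2013 and 413 as deposited, and 436 and 4744 with the housekeeping mean set equal, where the sign of many modest differences turned.

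The share of counted genes followed signal. Of 4482 genes with a mean signal under 2.5, near the background of the array, 1.70% were higher and 5.35% lower, with a median difference of -0.15 that became 0.03 with the array medians set equal. These were 76 higher and 240 lower genes as deposited, but 229 and 55 with the array medians set equal and 166 and 79 after quantile normalization, so the excess of lower genes turned. Of 5437 genes from 2.5 to 4, 13.8% were higher and 2.61% lower. Of 2650 genes from 4 to 6, 36.6% were higher and 1.09% lower, and of 419 genes at 6 or more, 52.3% were higher and 0.477% lower, with a median difference of 0.79. Signals of different probe sets are not amounts of RNA that can be set side by side, so these ranges describe the array only.

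**Figure D3:**
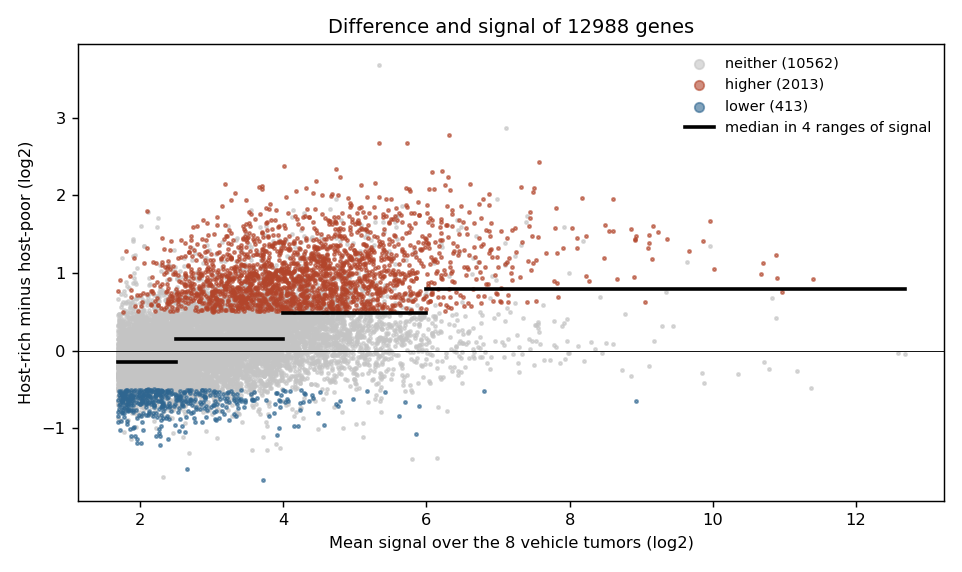
Each point is 1 of 12988 genes, with its mean log2 signal over the 8 vehicle tumors on the horizontal axis and the host-rich minus host-poor difference in log2 on the vertical axis; black lines are medians in 4 ranges of signal. The median rises from -0.15 in the dimmest range to 0.79 in the brightest as deposited, and the first of these turns to 0.03 with the array medians set equal.

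Fibroblast and matrix genes were the list with the largest median difference, as deposited, among those with 5 or more genes described. After quantile normalization their median of 0.97 was below those of adipocyte genes (1.29) and of mouse genes with no direct human counterpart (1.23), and level with that of macrophage genes (0.98). Of 27, besides the score genes, 21 were higher in host-rich tumors and none lower, and the median difference was 1.39. Relative to the median of all genes this was 1.30 as deposited and 0.95 after quantile normalization. Pdgfra, a growth factor receptor of fibroblasts, stood at 5.79, 4.94, 6.17 and 5.29 in host-rich tumors 6, 8, 9 and 12, and at 4.06, 4.64, 2.57 and 2.20 in host-poor tumors 10, 7, 11 and 5. The means were 5.55 ± 0.54 (SD, n = 4) and 3.37 ± 1.17 (SD, n = 4), a 4.53-fold difference, with tumors 11 and 5 lowest. Mmp2, a matrix protease, differed by 2.08 on the log2 scale, and Fbln2, a matrix glycoprotein, by 1.97. Col12a1, a collagen that associates with fibrils, differed by 1.96, but host-rich tumor 9 (7.03) lay below host-poor tumor 10 (7.13), so it was not counted, and without tumor 5 the difference was 1.29.

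Macrophage genes differed by nearly as much, with 19 of 26 higher, none lower and a median difference of 1.32, which was 1.23 above the median of all genes as deposited and 0.96 above it after quantile normalization. Mrc1, the mannose receptor of tissue macrophages, stood at 6.88, 5.68, 7.27 and 6.88 in host-rich tumors 6, 8, 9 and 12, and at 5.29, 5.02, 4.16 and 1.56 in host-poor tumors 10, 7, 11 and 5. The difference was 6.37-fold, and tumor 5 lay far below every other tumor. Without tumor 5 the log2 difference of Mrc1 was 1.86, against 2.67 with it. C1qa and C1qb, subunits of the complement starter C1q that macrophages make, differed by 2.08 and 2.02. Fcer1g, the signaling chain of several Fc receptors, differed by 2.05, from 7.74 to 8.81 in host-rich and 6.01 to 7.11 in host-poor tumors.

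Vessel genes were mostly not counted. Of 25 endothelial genes besides Cdh5 and Pecam1, only Eng (4%) was higher as deposited, beside 15.5% of all genes. With the array medians set equal, 5 of the 25 were higher, and 3135 of all 12988 genes. The median difference of the list was 0.37 as deposited, 0.55 with the array medians set equal and -0.21 with the housekeeping mean set equal. Relative to the median of all genes it was 0.28 in each of these 3, and 0.17 after quantile normalization. Eng, the endothelial TGF-beta co-receptor endoglin, stood at 5.98, 5.90, 6.29 and 5.55 in host-rich tumors 6, 8, 9 and 12 and at 4.95, 5.33, 4.42 and 4.87 in host-poor tumors 10, 7, 11 and 5. Its groups were only just separate, between tumors 12 and 7. Vwf, the clotting factor stored in endothelial cells, differed by 0.73, Sox18, an endothelial transcription factor, by 0.80 (0.53 without tumor 10) and Ptprb, a phosphatase of the endothelial surface, by 0.88, each with overlap. Of 17 pericyte and smooth muscle genes, 1 (5.88%) was higher and none lower, with a median difference of 0.44. With the array medians set equal, 4 were higher and the median was 0.63. With the housekeeping mean set equal it was -0.14. Relative to the median of all genes it was 0.36 in each of these, and 0.14 after quantile normalization. The contractile genes Myl9 and Tagln differed by 1.36 and 1.24, and both overlapped between the groups.

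Another list held 10 host genes taken from the study, which chose them on these tumors, so their counts are no independent evidence. They were Angpt1, Angpt2, Tie1, Kdr, Pdgfra, Mmp9 and Tgfb1, measured there apart from the arrays, and Jag1, Nrp2 and Sema5b, from its array lists; Cdh5, Acta2 and Cd68 were measured there too but belong to the score. Of the 9 above the signal limit, 5 were higher and none lower. Besides Pdgfra, these were Tgfb1, a fibrogenic cytokine (difference 1.27), Jag1, a Notch ligand (1.17), Angpt2, which destabilizes vessels (1.07), and Nrp2, a receptor for VEGF and semaphorins (0.78). Angpt2 stood at 5.97, 5.57, 5.06 and 5.30 in host-rich tumors 6, 8, 9 and 12 and at 4.55, 4.74, 3.87 and 4.46 in host-poor tumors 10, 7, 11 and 5. The receptor genes Kdr and Tie1 of endothelial cells differed by 0.53 and 0.20 and were not counted, like the protease gene Mmp9 (0.55). Without tumor 11 the difference of Kdr was 0.25, and without tumor 12 that of Mmp9 was 0.34. The semaphorin gene Sema5b differed by -0.16, from 3.49 to 4.07 in host-rich and 3.46 to 4.12 in host-poor tumors.

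Genes that mice have and humans lack in direct form had a median difference of 1.32 over 15 members above the signal limit. Over all 20 measured it was 1.17. Of the 15, 4 (26.7%) were higher and none lower, beside 15.5% higher and 3.18% lower of all genes. Clec4a3, a myeloid lectin, stood at 6.50, 6.44, 5.86 and 7.16 in host-rich tumors 6, 8, 9 and 12 and at 4.15, 5.40, 4.24 and 4.83 in host-poor tumors 10, 7, 11 and 5. Ms4a6d, a myeloid membrane protein, differed by 1.78 and Pirb, an inhibitory receptor, by 1.68, without overlap. Ccl6, a chemokine, differed by 1.51 with overlap, and by 0.98 without tumor 9. Xist, the RNA of the inactive X chromosome of female cells, averaged 6.85 ± 0.11 (SD, n = 4) in host-rich and 4.93 ± 0.62 (SD, n = 4) in host-poor tumors, a 3.79-fold difference. It was 6.90, 6.98, 6.75 and 6.76 in host-rich tumors 6, 8, 9 and 12 and 4.78, 5.57, 4.13 and 5.22 in host-poor tumors 10, 7, 11 and 5. The Y-linked genes Uty, Kdm5d and Eif2s3y were under the signal limit, between 0.38 and 1.78 in these female hosts, while Sry stood at 2.20 to 2.74 with overlap between the groups.

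Other immune lists were uneven between tumors. Of 8 B and plasma cell genes, 2 (25%) were higher, beside 15.5% of all genes, with a median difference of 1.0. Ighm, the immunoglobulin M heavy chain, stood at 6.29, 6.26, 9.07 and 7.27 in host-rich tumors 6, 8, 9 and 12 and at 4.31, 5.26, 4.14 and 5.99 in host-poor tumors 10, 7, 11 and 5. Tumor 9 was highest, and so it was for the B cell genes Ms4a1 (5.84) and Cd79a (5.62), where no other vehicle tumor exceeded 2.52. Without tumor 9 the median of the list was 0.30, the difference of Ighm 1.68, against 2.30 with it, and those of Ms4a1 and Cd79a 0.12 and 0.19. The list mean was 2.44 to 4.95 in host-rich and 2.29 to 2.76 in host-poor tumors. Of 8 T and NK cell genes, none was counted and the median difference was 0.07, or -0.51 with the housekeeping mean set equal. No gene was counted among 6 dendritic cell, 3 mast cell and 5 lymphatic endothelial genes, and 1 of 4 neutrophil genes was higher.

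Of 8 MHC class I genes, which present peptides on most cells, 4 (50%) were higher and none lower, with a median difference of 0.83. Over all genes 15.5% were higher. H2-K1, a class I heavy chain, differed by 1.47 and B2m, the light chain, by 1.42. Of 5 MHC class II genes, 2 were higher and none lower, with a median difference of 0.64. Among 11 interferon-stimulated genes 4 (36.4%) were higher, with a median difference of 0.70, and Ifih1, a sensor of viral RNA, differed by 1.21. Of 11 complement and coagulation genes, 4 (36.4%) were higher and none lower. Serping1, the C1 inhibitor, differed by 1.58, from 7.75 to 8.40 in host-rich and 5.74 to 6.87 in host-poor tumors. Plau, which encodes urokinase, differed by 1.07. F13a1, the clotting factor made by macrophages, differed by 1.73 with overlap.

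Fat and muscle genes did not follow the score in an even way. Of 9 adipocyte genes, 2 (22.2%) were higher, beside 15.5% of all genes. Lpl, the lipase that frees fatty acids from lipoproteins, stood at 6.38, 6.53, 6.64 and 6.46 in host-rich tumors 6, 8, 9 and 12. It stood at 5.32, 5.52, 4.46 and 3.64 in host-poor tumors 10, 7, 11 and 5. Car3, a carbonic anhydrase of fat and muscle, had the largest difference of any gene described (3.68) but was not counted, since host-poor tumor 7 (7.30) lay above host-rich tumors 6 (7.07) and 12 (4.78). Scd1, a fatty acid desaturase, was 8.67 in tumor 9 and at most 4.59 elsewhere among the vehicle tumors. The median difference of the adipocyte list was 1.29, and 0.41 without tumor 9. Without 1 vehicle tumor the difference of Car3 was 2.90 (without tumor 9) to 4.95 (without tumor 7). Of 9 skeletal muscle genes, 2 were lower in host-rich tumors and none higher, with a median difference of -0.63. These were Actn3 and Myh2, of fast fibers, at 1.26 to 2.11 and 1.23 to 1.65 in host-rich tumors and 2.34 to 3.63 and 1.76 to 3.51 in host-poor tumors, with tumor 7 highest for both. Without tumor 7 the list median was -0.24. Of 3 keratinocyte genes above the signal limit, none was counted. The mean of the 10 measured was 1.47 to 1.61 in host-rich and 1.91 to 1.95 in host-poor tumors.

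Some genes that every cell uses were also higher in host-rich tumors, as deposited. Of 23 housekeeping genes, 11 (47.8%) were higher and none lower, beside 52.3% higher among all genes with a signal of 6 or more, and the median difference was 0.49. After quantile normalization 6 of the 23 were higher, and their median was 0.09 above that of all genes. Gapdh, a glycolytic enzyme, stood at 10.14, 9.86, 9.22 and 10.01 in host-rich tumors 6, 8, 9 and 12 and at 8.58, 8.70, 8.18 and 8.19 in host-poor tumors 10, 7, 11 and 5. Eef2, an elongation factor, differed by 1.33 and Actb, cytoplasmic actin, by 1.28. Of 16 cytosolic ribosomal protein genes above the signal limit, 10 (62.5%) were higher and none lower, with a median of 1.09. Over all 20 measured the median was 0.71. Rpl7 differed by 2.06. Of 15 genes of mitochondrial respiration, 11 (73.3%) were higher (median 0.83). Of 14 endoplasmic reticulum chaperone and stress genes above the limit, 9 (64.3%) were higher (median 0.85, and 0.70 over all 15 measured). Among these, Dnajb9, a co-chaperone, differed by 1.94 and Calr, which encodes calreticulin, by 1.23. Over all genes described 15.5% were higher, and 36.6% of those with a signal from 4 to 6. The lists were not matched on signal. For the genes above the limit, the medians of the ribosomal, respiratory and chaperone lists were 1.01, 0.74 and 0.76 above that of all genes as deposited. After quantile normalization they were 0.58, 0.61 and 0.35 above it.

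Cell cycle and hypoxia genes lay near the rest of the array. Of 24 cell cycle genes, 4 (16.7%) were higher, beside 15.5% of all genes. Their median difference of 0.26 became -0.32 with the housekeeping mean set equal. Mki67, a marker of dividing cells, differed by 1.28, from 4.66 to 5.73 in host-rich and 3.47 to 4.19 in host-poor tumors, and Pcna, the replication clamp, by 1.18. Of 14 hypoxia and glycolysis genes, 3 (21.4%) were higher, with a median of 0.25 that became -0.33 with the housekeeping mean set equal. Adm, a vasodilator peptide, differed by 0.97.

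**Figure D4:**
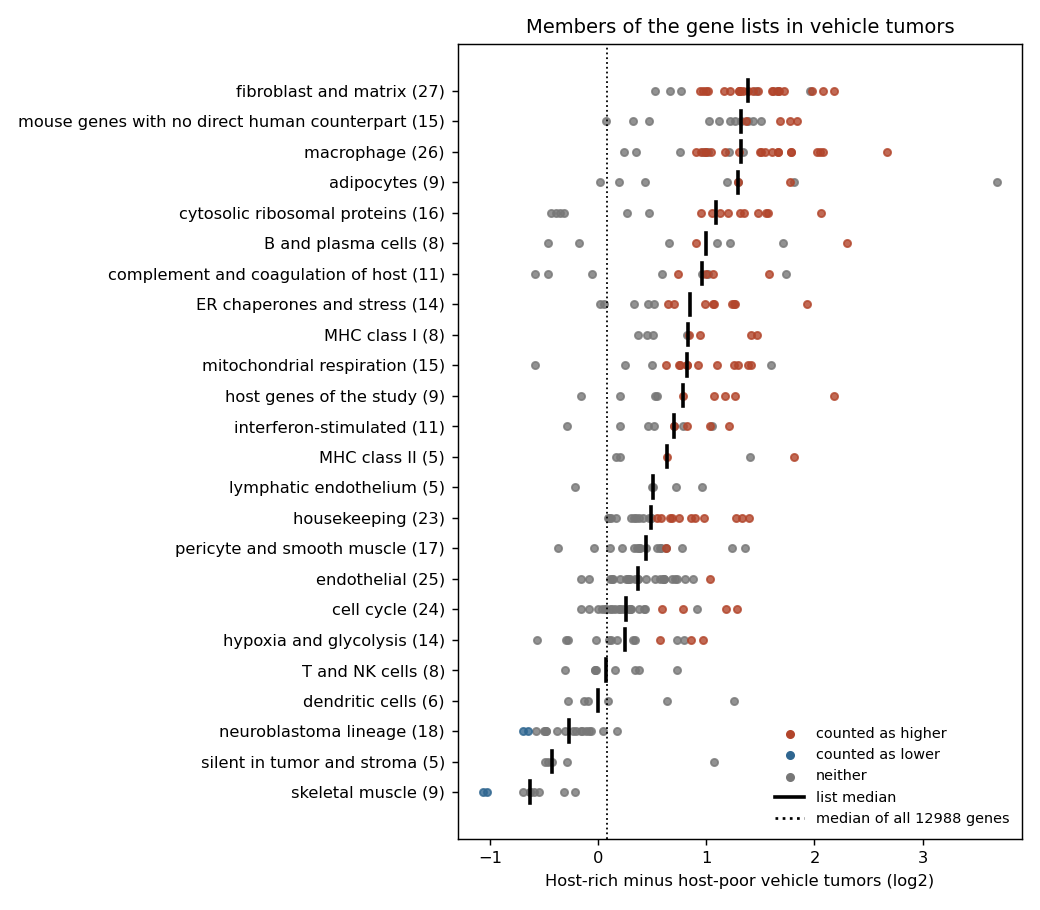
Each point is 1 gene, placed by its host-rich minus host-poor difference in vehicle tumors (log2), by list (number of genes described in parentheses); red and blue points were counted as higher and lower, black bars are list medians and the dotted line is the median of all 12988 genes, 0.09. As deposited, fibroblast and macrophage medians of 1.39 and 1.32 stand at the right, and the neuroblastoma median of -0.27 lies below 0. Those of skeletal muscle (-0.63) and of genes that neither tumor nor stroma is known to use (-0.43) lie further left. The endothelial, pericyte, housekeeping, cell cycle and hypoxia medians turn below 0 with the housekeeping mean set equal, where that of all genes is -0.49. So do the lymphatic endothelial, T and NK cell and dendritic cell medians.

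By size, the 15 genes with the largest differences among those higher were Cxcl13, Slc40a1, Mrc1, Hmox1, Snord72, Ndufb9, Thbs2, Ighm, Txnip, Clec4a1, Pdgfra, Unc93b1, Ptpn22, Ctsc and Selplg, with differences of 2.78 to 2.14. Cxcl13, a chemokine that draws B cells, stood at 6.75, 6.22, 8.69 and 9.18 in host-rich tumors 6, 8, 9 and 12 and at 3.98, 5.59, 4.82 and 5.33 in host-poor tumors 10, 7, 11 and 5. The difference was 6.87-fold, with tumors 9 and 12 highest. Slc40a1, the iron exporter ferroportin, was 7.07 ± 0.16 (SD, n = 4) in host-rich and 4.39 ± 0.90 (SD, n = 4) in host-poor tumors, a 6.39-fold difference. Hmox1, the enzyme that breaks down heme, was 8.79 ± 0.09 (SD, n = 4) and 6.36 ± 0.90 (SD, n = 4), a 5.39-fold difference. Both iron genes were level among the 4 host-rich tumors and spread among the 4 host-poor tumors. The host score had the same shape, with SDs of 0.18 in host-rich and 0.74 in host-poor tumors. Thbs2, a matrix glycoprotein, differed by 2.32 (1.72 without tumor 5), and Txnip, an inhibitor of thioredoxin, by 2.24. Clec4a1, a myeloid lectin, Unc93b1, a carrier of Toll-like receptors, Ptpn22, a phosphatase of leukocytes, Ctsc, a lysosomal protease, and Selplg, a ligand of selectins, are genes of immune cells and differed by 2.14 to 2.24. Snord72, a small nucleolar RNA, and Ndufb9, a subunit of respiratory complex I, differed by 2.38 and 2.34.

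Genes that did not follow host content were looked for among the brightest probe sets. Of 419 genes with a mean signal of 6 or more, 47 differed by less than 0.1 log2 between the groups. So did 298 of 2650 genes from 4 to 6, 978 of 5437 from 2.5 to 4 and 902 of 4482 under 2.5. Flat genes thus took a larger share below a signal of 4. The 8 with the highest mean signal among all genes this flat were Rn7sk, Snord13, Vdac3, Eif4g2, Rpph1, H2ac10, Ube2l3 and Snord65. Rn7sk, a small nuclear RNA that restrains transcription elongation, was 12.66 ± 0.10 (SD, n = 4) in host-rich and 12.71 ± 0.11 (SD, n = 4) in host-poor tumors. Vdac3, a channel of the outer mitochondrial membrane, stood at 8.52, 8.70, 8.64 and 8.74 in host-rich tumors 6, 8, 9 and 12 and at 8.62, 8.90, 8.32 and 8.41 in host-poor tumors 10, 7, 11 and 5. Eif4g2, a translation initiation factor, was 8.44 ± 0.07 and 8.47 ± 0.23 (SD, n = 4 each), and Ube2l3, a ubiquitin-conjugating enzyme, 7.98 ± 0.10 and 8.01 ± 0.13 (SD, n = 4 each). Among these 8 genes the difference was largest for Vdac3 (0.09) and the slope on the score in cinacalcet tumors lay between -0.37 (Snord65) and 0.24 (H2ac10). The flatness is that of the deposited scale, and with the housekeeping mean set equal such genes would be lower in host-rich tumors.

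Genes of the neuroblastoma lineage, which the human cells use and host stroma mostly does not, were not higher in host-rich tumors. Of 18 above the signal limit, 2 were lower and none higher. Over all genes 3.18% were lower and 15.5% higher, and 5.35% and 1.70% of those with a signal under 2.5. The median difference of the 18 was -0.27, against 0.09 over all genes. The 5 genes above the limit that neither tumor nor stroma is known to use had a lower median of -0.43. Relative to the median of all genes, these 2 medians were -0.35 and -0.51. Whether the lineage genes differed from other genes of like signal was not tested. The list mean was 2.11 to 2.33 in host-rich and 2.50 to 2.66 in host-poor tumors. Mycn stood at 1.68, 1.69, 1.70 and 1.91 in host-rich tumors 6, 8, 9 and 12 and at 2.15, 2.55, 2.59 and 2.43 in host-poor tumors 10, 7, 11 and 5, a difference of -0.69 at a signal near background. Hand2, a transcription factor of sympathetic precursors, stood at 3.82, 3.58, 3.69 and 3.86 in host-rich tumors and at 4.39, 4.55, 4.30 and 4.31 in host-poor tumors in the same order, a difference of -0.65. After quantile normalization 5 of the 18 genes were lower, against 1 with the array medians set equal and 15 with the housekeeping mean set equal, and the median stayed below 0 in each.

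The 413 lower genes were mostly dim. Only 31 had a mean signal of 4 or more, against 1188 of the 2013 higher genes. The 12 with the largest differences were Mir139, Vmn1r2, Myl6, Selenok-ps1, Psg-ps1, Foxi2, Ces2b, Mafa, Mir680-3, Prss3, Cts3 and Mir874, with differences of -1.67 to -1.08. Vmn1r2, a pheromone receptor gene, was 1.89 ± 0.14 (SD, n = 4) in host-rich and 3.42 ± 0.74 (SD, n = 4) in host-poor tumors, and Mafa, a factor of pancreatic beta cells, 1.66 ± 0.23 and 2.77 ± 0.62 (SD, n = 4 each). Apart from Mir139 and Mir874, their host-rich means were between 1.33 (Prss3) and 1.89 (Vmn1r2), near background. The genes of higher signal that follow were chosen after their values were seen. Rnu11, an RNA of the minor spliceosome, stood at 8.56, 8.61, 8.78 and 8.47 in host-rich tumors 6, 8, 9 and 12 and at 9.33, 8.84, 9.81 and 9.04 in host-poor tumors 10, 7, 11 and 5, a difference of -0.65. Celf3, a neuronal splicing factor, stood at 6.57, 6.72, 6.76 and 6.10 and at 6.79, 7.07, 6.93 and 7.43 in the same order, a difference of -0.52. Gphn, the scaffold protein gephyrin of inhibitory synapses, differed by -0.71, Septin3, a neuronal septin, by -0.63 and Igf2bp3, an oncofetal RNA-binding protein, by -0.69. Gm7138, Rfx3 and Prcc, of higher mean signal than Septin3 and Igf2bp3, differed by -0.84, -0.54 and -0.53. The neuronal and oncofetal genes named here thus do not stand for all 31.

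MicroRNA genes took an uneven share of the lower genes. Of 170 described, 20 (11.8%) were lower and 3 (1.76%) higher, against 2.88% lower and 16.3% higher among 12044 protein-coding genes. The median difference of the microRNA genes was -0.44. The classes were not matched on signal, and of all genes with a mean signal under 2.5, 5.35% were lower and 1.70% higher. Long noncoding RNAs had 31 lower and 14 higher of 459 and a median of -0.27. Of 72 small nucleolar RNAs, 9 were higher and none lower, with a median of 0.71. The medians of these 3 classes kept their sign under each scaling, but not all counts did. With the array medians set equal, 5 long noncoding RNAs were lower and 23 higher, and with the housekeeping mean set equal, 8 small nucleolar RNAs were lower and 1 higher. Of the 31 lower genes with a signal of 4 or more, 7 were microRNA genes. Mir210, a microRNA known to be induced by hypoxia, had the highest signal of these and stood at 5.73, 5.52, 5.13 and 4.88 in host-rich tumors 6, 8, 9 and 12 and at 6.53, 5.89, 6.51 and 6.64 in host-poor tumors 10, 7, 11 and 5, a difference of -1.08. Mir139 stood at 3.42, 3.36, 2.21 and 2.54 and at 4.82, 4.11, 4.53 and 4.74 in the same order, a 3.18-fold difference. Mir99b differed by -0.67, Mir92b by -0.72 and Mir32 by -0.95. The probe sets are annotated to the microRNA gene and do not tell its mature arms apart.

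Mature sequences of the microRNA genes that were lower, from RefSeq for build GRCm38.p6, show which of them share a seed (bases 2 to 8, in capitals). They are those lower by the largest amounts and listed there (Mir139 and Mir680-3) and the 4 of highest signal, and for each of these 4 genes 1 arm is shown.
mmu-miR-139-5p: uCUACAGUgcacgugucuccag
mmu-miR-139-3p: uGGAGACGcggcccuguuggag
mmu-miR-680: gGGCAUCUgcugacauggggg
mmu-miR-210-3p: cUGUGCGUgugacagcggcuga
mmu-miR-99b-5p: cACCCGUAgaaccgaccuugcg
mmu-miR-92b-3p: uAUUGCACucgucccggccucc
mmu-miR-32-5p: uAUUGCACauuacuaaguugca
The miR-92b-3p and miR-32-5p sequences have the same seed and come from genes on chromosomes 3 (89227126 to 89227147, minus strand) and 4 (56895272 to 56895293, minus strand), and the 11 mature sequences of the 6 genes hold 10 seeds in all. Mir139 and Mir210 lie on chromosome 7, Mir680-3 on chromosome 12 and Mir99b on chromosome 17.

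The 7 cinacalcet tumors kept by the methods took no part in choosing the groups, so the relation with host content was tested in them. Tumor 6 was left out there as an outlier of the study's quality control. Their host scores were 8.22 in cinacalcet tumor 10, 8.09 in tumor 4, 8.03 in tumor 7, 7.73 in tumor 11, 7.60 in tumor 9, 7.43 in tumor 8 and 6.50 in tumor 5. Tumor 5 lay apart at the low end. By the methods, tumors 9, 10 and 11 had the longest treatment, and tumor 10 had the highest score of the 7. The slope of log2 signal on the host score was fitted with limma for 20261 probe sets, where a slope of 1 means that a gene moved by as much as the score.

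No probe set passed an adjusted p of 0.05 in either direction (0% rising and 0% falling, smallest adjusted p = 0.342, limma with Benjamini-Hochberg adjustment). At an unadjusted p under 0.05, 1350 rose and 681 fell of 20261. Array weights gave 8 rising and 3 falling at an adjusted p under 0.05, and the 3 falling were the keratin genes Krt33a and Krt72 and an unnamed probe set, whereas all 8 rising ones were unnamed. An adjusted p above the threshold does not show that a gene was flat.

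As deposited, the signs of the slopes ran with the vehicle differences. Of the 2013 genes higher in host-rich vehicle tumors, 1911 (94.9%) had a slope above 0 in cinacalcet tumors, with a median slope of 0.48 (quartiles 0.26 and 0.71), and 540 had an unadjusted p under 0.05. Of the 413 lower genes 77 (18.6%) had a slope above 0, with a median of -0.18, and of the 10562 genes counted as neither 52.0% had one, with a median of 0.01. Genes of 1 array vary together, so these shares are a description without a test. Array distributions followed the score here as well, since cinacalcet tumors 5 and 8, of the lowest scores, had the highest array medians, 1.76 and 1.75, against 1.58 to 1.66 in the other 5. With the array median as a covariate, 42.3% of the 2013 genes had a slope above 0, and with the housekeeping mean of each array set equal, 58.0% had one, so in these tumors the shared direction and the array distribution cannot be told apart. Without cinacalcet tumor 5 the share was 82.9%.

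**Figure D5:**
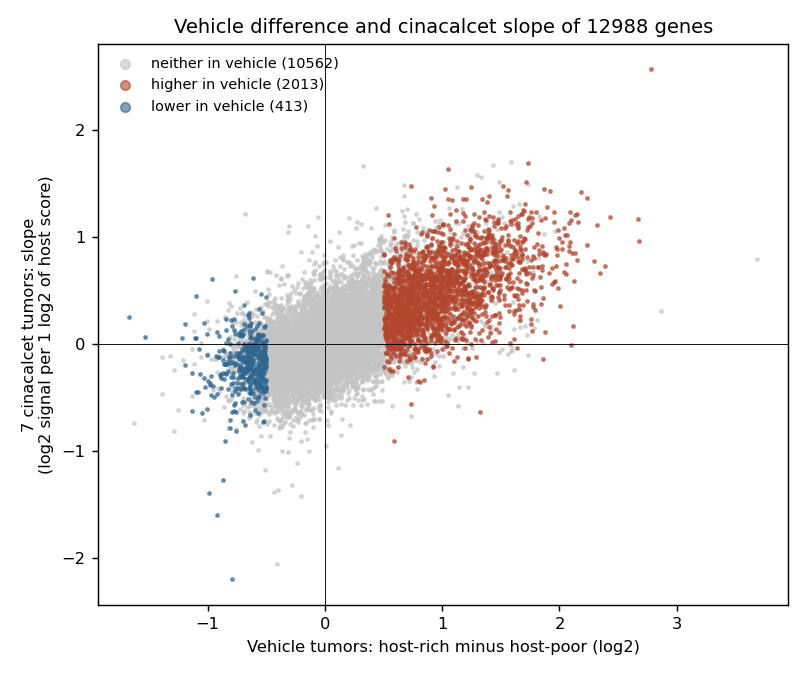
Each point is 1 of 12988 genes, with its host-rich minus host-poor difference in the 8 vehicle tumors (log2) on the horizontal axis and its slope on the host score in 7 cinacalcet tumors (log2 signal per log2 of score) on the vertical axis. Most genes higher in vehicle (red) have slopes above 0 as deposited, with a median of 0.48, and most lower genes (blue) slopes below 0, with a median of -0.18; with the array median as a covariate 42.3% of the red genes have slopes above 0.

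The 8 genes of smallest p with a positive slope were Col6a1, Lrrc32, Col15a1, Bgn, Mrc2, Fn1, Myh9 and Pdgfrl. Each was also among the genes higher in host-rich vehicle tumors, as were 1911 of all 7484 genes with a slope above 0. None of the 8 passed the adjusted threshold, and 4 of the 10 score genes are fibroblast genes, so the overlap is only a description. Col6a1, a collagen of microfibrils, had a slope of 1.0 (95% confidence interval 0.66 to 1.35, adjusted p = 0.342 from limma). Its signal was 7.37 in cinacalcet tumor 10, 7.09 in tumor 4, 7.25 in tumor 7, 6.85 in tumor 11, 6.67 in tumor 9, 6.57 in tumor 8 and 5.61 in tumor 5, which follows the order of the scores except between tumors 4 and 7. Bgn, the proteoglycan biglycan, had a slope of 1.21 (0.76 to 1.67), Fn1, fibronectin, one of 1.18 (0.71 to 1.66), and Lrrc32, which anchors latent TGF-beta at the cell surface, one of 1.24 (0.79 to 1.69). Myh9, a nonmuscle myosin, had a slope of 0.95 and Mrc2, a collagen uptake receptor, one of 0.96. Without cinacalcet tumor 5 the slope of Bgn was 0.81 and that of Myh9 0.60. In vehicle tumors, Lrrc32 differed by 2.09, Bgn by 1.67 and Col6a1 by 1.34.

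In the lists, no member passed the adjusted threshold in cinacalcet tumors, and the slopes are given as a description on the deposited scale only. For the 2013 higher genes the median slope of 0.48 depended on scaling. It was 0.56 with array medians set equal, 0.27 after quantile normalization and 0.08 with the housekeeping mean set equal. With the array median as a covariate it was -0.08. All 27 fibroblast and matrix genes and all 26 macrophage genes had slopes above 0, with medians of 0.82 and 0.77, beside a median of 0.06 over all genes described. The 15 genes with no direct human counterpart all had slopes above 0, with a median of 0.74. Of 25 endothelial genes 22 did, with a median of 0.32, of 17 pericyte and smooth muscle genes 14, with a median of 0.59, and of 18 neuroblastoma genes 7, with a median of -0.04. B and plasma cell genes had a median slope of -0.06 and 4 of 8 above 0. Without tumor 5, 26 of the 27 fibroblast and 21 of the 26 macrophage genes had slopes above 0, and the medians became 0.33 for genes with no direct human counterpart, 1.15 for pericyte and smooth muscle genes, 0.37 for neuroblastoma genes and -1.12 for B and plasma cell genes. Small nucleolar RNAs, whose median difference was 0.71 in vehicle tumors, had a median slope of 0.01. Xist had a slope of 1.43 (95% confidence interval 0.43 to 2.43, adjusted p = 0.393 from limma), Pdgfra one of 1.42, Angpt2 one of 0.97 and Tgfb1 one of 0.70. Without tumor 5 the slopes were 0.39 for Pdgfra, 0.61 for Angpt2 and 0.46 for Tgfb1. Cxcl13 had the steepest slope of the 15 leading genes, 2.57, with an interval from -0.09 to 5.23, and one of 0.91 without tumor 5. The slopes of Mycn (-0.05), Hand2 (0.24), Mir139 (0.25) and Mir210 (-0.04) had intervals that crossed 0.

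The 8 genes of smallest p with a negative slope were Krt33a, Krt72, Gm9292, Krt73, 4930438A08Rik, Gm5523, Plekhd1os and B930059L03Rik. Krt72, a keratin of the hair follicle sheath, was 4.99 in cinacalcet tumor 5 and 1.24 to 1.93 in the other 6, a slope of -2.06 (95% confidence interval -2.80 to -1.33, adjusted p = 0.342 from limma). Krt33a, a hair keratin, was 4.09 in tumor 5 and 1.67 to 2.55 in the others, and Krt73, another sheath keratin, 4.74 and 1.73 to 2.47. Without that tumor the slopes were -0.66 for Krt72 and -0.46 for Krt73. In vehicle tumors Krt73 was 2.15 to 2.63 in host-rich and 2.70 to 3.87 in host-poor tumors, while Krt33a and Krt72 overlapped.

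Only some genes could be bounded as flat. The 95% interval of the slope lay within 0.5 log2 per unit of score on either side of 0 for 1385 (13.1%) of the 10562 genes counted as neither, for 32 (7.75%) of the lower genes and for 36 (1.79%) of the higher genes. Of the 8 brightest flat genes, Rn7sk had an interval of -0.32 to 0.38 and Snord13 one of -0.46 to 0.22, both within these bounds. Vdac3 had one of -0.70 to 0.33, which was not.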

How the data were processed

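RNA of each of the 16 xenografts went onto 1 mouse array (Mouse Gene 2.1 ST). The authors normalized the arrays by RMA and deposited the values on a log2 scale, for 40543 probe sets; their processing notes list limma 3.24 and R 3.2. Of the probe sets, 23452 named 1 gene, 1615 named several and 15476 are unnamed here. Of the first, 23256 were matched to RefSeq (GRCm38.p6), and no symbol changed. For each of 22183 genes the probe set of highest mean signal was used.

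The groups, gene lists and tests were chosen with earlier results of these data known. Host-rich and host-poor vehicle tumors were compared by group means and overlap, with no test. Probe sets whose mean over the vehicle tumors was above 1.69, the median of these means, were kept, as in the first filter of the methods. This left 20261 probe sets for the slopes and 12988 genes besides the 10 of the score. The second filter of the methods, on the SD, was an alternative only. Slopes were fitted with limma 3.58.1 in R 4.3.3 (lmFit and eBayes), with Benjamini-Hochberg adjustment. Cinacalcet tumor 6 was left out, as in the methods. The scripts were tested on simulated data.

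Genes were named by rule. These were the 10 score genes and, among counted genes, the 15 largest positive and 12 largest negative differences. They were also the 8 genes of highest signal with a difference under 0.1 and the 8 of smallest p in each direction of slope. For most lists, up to 4 members were named by size of difference. Some lists, such as T and NK cells and MHC class II, were given without named members. Every X- and Y-linked gene listed and host gene taken from the study was named too. MicroRNA genes and genes of higher signal among those lower were added afterwards. Alternatives were other filters, thresholds, scalings, scores, variance models and left-out tumors. The array median as a covariate, and each alternative for the share of slopes above 0, were chosen after seeing the data. Replicates are separate tumors, p-values measure the spread between them, and their small number limits precision.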

Additional observations from a re-analysis of the deposited data

Results flagged for a closer look

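A tumor was listed when its gap to the nearest other tumor was large against the whole range of its group (Dixon's test at 95%). Of 374 sets of values examined (187 measures in vehicle and in cinacalcet tumors), 39 (10.4%) had such a tumor. For unrelated sets chance gives about 1 in 20, but the 10.4% cannot be set against this. The measures vary together, and they include the score genes and genes named for the smallest p of their slopes.

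Vehicle tumor 5, the most host-poor, was set apart below the others in the mean of the fibroblast score genes (4.90), in Col3a1 (4.30), in Bgn (7.52) and in Ncl, which encodes nucleolin (4.29). Vehicle tumor 9, a host-rich tumor, was set apart above the others in Ms4a1 (5.84) and Cd79a (5.62) of B cells, in Scd1 (8.67) and Retn (6.48) of fat, and in the list means of lymphatic endothelium (4.50), mast cells (2.28) and adipocytes (5.58). Vehicle tumor 7 was set apart above in Acta1, skeletal actin (6.10), and in the mean of the skeletal muscle list (3.42). Vehicle tumor 11 was apart in Kdm5d (1.61), Chga (3.72) and, below the others, Ccnb2 (1.96), and vehicle tumor 12 in H2ac10 (8.51).

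Among the cinacalcet tumors, tumor 5 was set apart below the others in Col1a1 (7.44), Col1a2 (6.93), Bgn (8.61), Myh9 (6.52) and Actb (5.26). It was set apart above them in Krt33a (4.09), Krt72 (4.99), Krt73 (4.74), 4930438A08Rik (3.34), Gm5523 (5.63) and Plekhd1os (2.98). Cinacalcet tumor 8 was low in Rpl7 (4.50), Rpl38 (6.49) and Cox7b (1.53) and high in the red blood cell list (2.85). Cinacalcet tumor 10 was high in H2ac10 (9.05), Hand2 (5.09), Chga (4.66) and the neuroblastoma list mean (3.28). Cinacalcet tumor 9 was high in Ms4a1 (3.15) and the neutrophil list mean (2.78), and cinacalcet tumor 7 in Ptprb (6.28).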

How the results depend on the processing

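The 2013 higher and 413 lower genes became 864 and 21 at a difference of 1 log2, 3135 and 93 with array medians set equal, 1152 and 702 after quantile normalization (1048 and 243 of them shared), and 436 and 4744 with the housekeeping mean set equal, whose 436 were all among the 2013. There were 739 lower genes with no filter and 734 with 3 tumors against 3. Leaving out 1 vehicle tumor gave 2024 to 2546 higher and 447 to 666 lower genes, the last without tumor 7; a smaller group overlaps less by construction. Of the lists, 11 turned sign with the housekeeping mean set equal, and no counted gene that is named did under any scaling, score or left-out tumor. The cause of these changes was not tested.

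In cinacalcet tumors 1 unnamed probe set rose when mural genes were left out of the score (adjusted p = 0.0173, limma), 8 rose and 3 fell with array weights, and 0 passed in the other settings, whose smallest adjusted p was 0.0582 to 0.938. The share of higher genes with a slope above 0 (94.9%) became 98.3% for genes counted at 1 log2, 91.4% for those counted with array medians set equal, 98.9% with the housekeeping mean set equal and 93.8% with 3 tumors against 3. With the slopes refitted it was 98.7% with array medians set equal, 78.6% after quantile normalization, 58.0% with the housekeeping mean set equal, 91.8% with cinacalcet tumor 6, 93.5% with array weights and 42.3% with the array median as a covariate. With other scores it was 92.0% (standardized genes), 93.5% (no fibroblast genes), 89.7% (no macrophage genes) and 96.0% (no mural genes). Leaving out 1 tumor gave 82.9% (without cinacalcet tumor 5) to 95.2%. No paired analysis was possible because the comparisons lie within the vehicle and within the cinacalcet tumors, where no 2 tumors share a number.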
